A study of Mus musculus with 45 samples.

Results

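Claudins are the membrane proteins that join neighbouring tubule cells at the tight junction, and 10 of their genes were followed here through the kidneys of 45 mice: Cldn1, Cldn2, Cldn3, Cldn4, Cldn7, Cldn8, Cldn12, Cldn14, Cldn15 and Cldn23. The members were taken by name, each gene ID being matched to its symbol, from the 55401 genes of the count tables, where 34 genes carried a claudin symbol. All 10 were counted in every mouse. In females all 10 passed the filter on low counts, which asked for 6 or more counts in 20% or more of each sex, and in males 9 did, since Cldn14 reached 6 counts in 3 of 24 males against 10 of 21 females.

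The measurement was translating ribosome affinity purification (TRAP) RNASeq, in which mRNA is pulled down on ribosomes that carry a tagged L10a protein. Every mouse, the controls included, was hemizygous for the L10a-EGFP allele R26Rpl10a, for Pax8rtTA and for TetOCre, and was given doxycycline from postnatal day 28 to 42, with the kidneys taken on day 49, at 7 weeks of age. Pax8 drives this system in nephron and collecting duct epithelium, so the tag and the gene loss both depended on Cre made under its control. Noncystic mice had 1 floxed allele of Pkd1, the polycystin-1 gene (8 males and 7 females). Pkd1KO mice had 2 floxed Pkd1 alleles (7 males and 8 females), and Pkd1KO+ciliaKO mice had 2 floxed alleles of Pkd1 and also 2 of Kif3a, a motor subunit needed for primary cilia (9 males and 6 females). The noncystic mice can thus lose 1 copy of Pkd1 and were not wild type. Comparing Pkd1KO with noncystic mice asks what changes with loss of Pkd1 before cysts form, and comparing it with Pkd1KO+ciliaKO mice asks which changes need cilia.

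The libraries held 80874556 to 132958186 counts. Pkd1, counted over the whole gene and so also outside any deleted part, had medians of 49.3, 36.6 and 42.3 CPM (counts scaled to library size, with TMM factors over all 45 mice) in noncystic, Pkd1KO and Pkd1KO+ciliaKO males and 51.5, 40.1 and 54.0 in the females. Kif3a separated the genotypes in males, with 4.90 to 7.45 CPM in Pkd1KO+ciliaKO mice and 13.8 to 29.2 in the others. In females the library labelled noncystic replicate 5 had 6.69 CPM of Kif3a and the library labelled Pkd1KO+ciliaKO replicate 6 had 20.7, against 23.2 to 25.3 and 6.56 to 8.47 in the remaining libraries of those labels, so 2 libraries went against their labels. In males, 4 libraries (noncystic replicate 3, Pkd1KO replicate 4, Pkd1KO+ciliaKO replicates 6 and 8) stood apart, with a median correlation with their own group of 0.975 to 0.986 against 0.987 to 0.995 in the other 20. All were kept under their labels, and results that rest on them are given with and without them. In these bulk samples fewer cells of a type and less RNA per cell cannot be told apart.

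A tight junction seals the space between cells and sets which ions and how much water pass through it, and its selectivity is set by which claudins a cell makes. Some claudins form pores and others mainly form barriers. In the kidney they are laid out along the nephron: the leaky proximal tubule uses Cldn2, a pore for cations and water, while Cldn3, Cldn4, Cldn7 and Cldn8 are claudins of the tighter distal nephron and collecting duct.

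Genotype moved few of these claudins. Cldn1 rose in Pkd1KO males against both other genotypes. Cldn8 fell and Cldn1 rose in Pkd1KO against Pkd1KO+ciliaKO mice of both sexes, with Cldn3 higher in the males and Cldn23 higher in the females. The Cldn1 call in females lay on the threshold and was kept in 5 of 23 alternative fits, and the Cldn3 call in males in 11 of 25. Those of Cldn8 were kept in 24 of 25 in males and 22 of 23 in females. No claudin passed the test between Pkd1KO+ciliaKO and noncystic mice, and of the calls between Pkd1KO and Pkd1KO+ciliaKO only that of Cldn1 in males was also made against noncystic mice. The largest number of calls came between the sexes: in noncystic mice Cldn1, Cldn4, Cldn7 and Cldn8 were lower in males and Cldn2 was higher. These calls are from edgeR's quasi-likelihood test, fitted over all protein-coding genes past the filter within each pair of groups, with a call at a Benjamini-Hochberg adjusted p of 0.05 or less. The replicates were separate mice.

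By comparison, 1 of 9 claudins was called between Pkd1KO and noncystic males, where 6.3% of all genes tested were called (4.05% higher and 2.25% lower in Pkd1KO), and 3 of 9 between Pkd1KO and Pkd1KO+ciliaKO males, where 3.77% were (1.99% higher, 1.78% lower). Between Pkd1KO and Pkd1KO+ciliaKO females it was 3 of 10, where 11.7% of genes were called (7.05% higher, 4.65% lower). For the remaining genotype comparisons edgeR called 0, against 8.89% of all genes for Pkd1KO+ciliaKO with noncystic males (5.63% higher, 3.26% lower), 3.34% for Pkd1KO with noncystic females (2.02% higher, 1.32% lower) and 2.54% for Pkd1KO+ciliaKO with noncystic females (0.67% higher, 1.87% lower). At an unadjusted p under 0.05 these had 1, 3 and 2 claudins. For unadjusted counts, here and below, the share over all genes is not given. DESeq2 called 0, 1 and 1 claudins, where it called 2157, 962 and 1280 genes in all, of 15991 in males and 15968 in females. The median log2 fold change of the claudins was 0.18 in Pkd1KO against noncystic males and 0.13 against Pkd1KO+ciliaKO males, with -0.01 and 0.01 over all genes. In females it was 0.09 and 0.23, with medians of all genes of -0.00 and -0.01. The 3 comparisons within a sex share mice, so their values are not independent of each other.

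**Figure D1:**
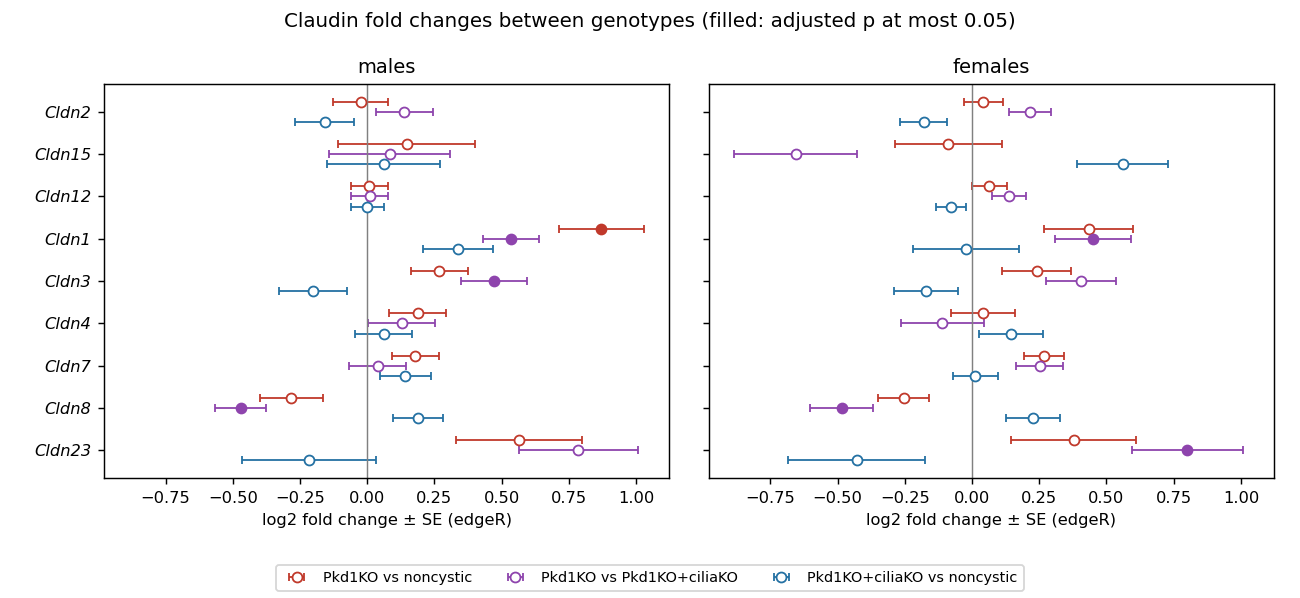
Log2 fold change of 9 claudins (edgeR, bars: SE) in the 3 genotype comparisons, males on the left and females on the right. Filled points passed an adjusted p of 0.05: Cldn1, Cldn3 and Cldn8 in males, Cldn1, Cldn8 and Cldn23 in females, and none between Pkd1KO+ciliaKO and noncystic mice.

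Levels of different genes were compared per length, in the deposited TPM. Cldn2 was the most abundant of the members in each of the 6 groups, with group means of 258 to 303 TPM. It made up 49.3% to 64.1% of the summed TPM of the members listed. Cldn12 (means of 55.5 to 70.1 TPM) and Cldn8 (33.6 to 78.0 TPM) came next. Cldn12 ranked above Cldn8 in 5 groups and below it in Pkd1KO+ciliaKO females, and the ranges of this pair overlapped in all groups but noncystic and Pkd1KO males. Cldn4 (23.2 to 42.1 TPM) and Cldn7 (21.1 to 43.8 TPM) followed, and their ranges overlapped in every group. Below them were Cldn3 (14.8 to 21.2 TPM), Cldn1 (5.42 to 14.6 TPM) and Cldn15 (4.83 to 8.32 TPM). Cldn23 had group means of 0.368 to 0.85 TPM, with single mice from 0.177 to 1.11 TPM. Cldn14, listed only in the female table, had group means of 0.0755 to 0.0908 TPM, with single mice from 0 to 0.261 TPM.

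**Figure D2:**
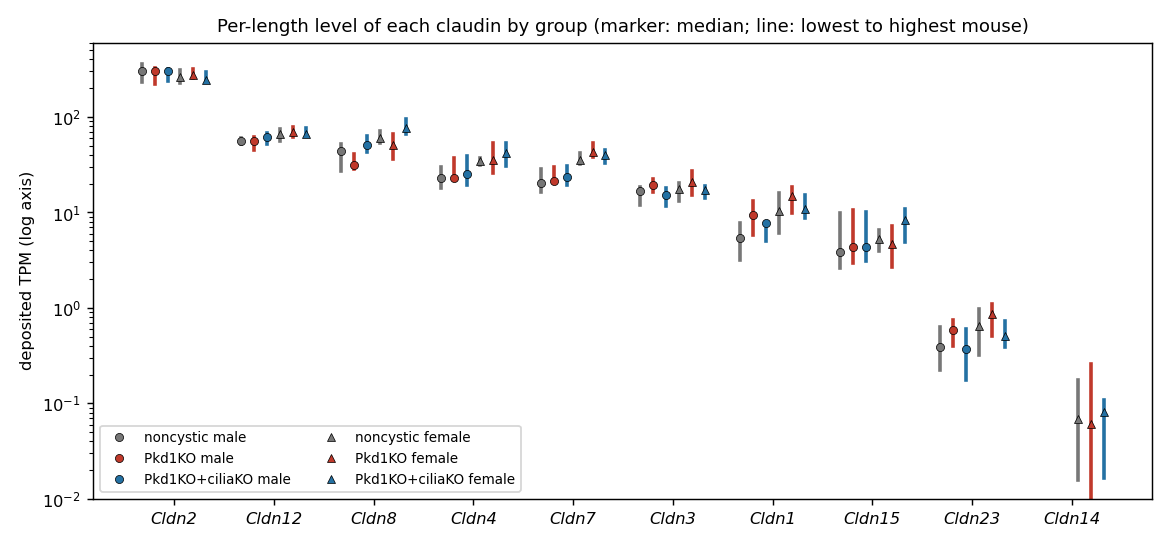
Deposited TPM of each claudin on a log axis, with the median (marker) and the lowest to highest mouse (line) of each of the 6 groups; a Cldn14 value of 0 is drawn at the bottom edge. Cldn2 lies highest in every group, Cldn23 and Cldn14 lie lowest, and Cldn14 is shown for females only.

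Of the pore-forming claudins, Cldn2 (ENSMUSG00000047230.6, chromosome X:139800828-139811386, plus strand) moved little with genotype. Its lowest, median and highest levels were 281, 335 and 409 CPM in noncystic males, 258, 328 and 399 in Pkd1KO males, and 204, 325 and 336 in Pkd1KO+ciliaKO males. Noncystic females had 236, 260 and 308 CPM, Pkd1KO females 256, 274 and 333, and Pkd1KO+ciliaKO females 212, 236 and 277. All genotype ranges overlapped. Across the 6 genotype comparisons its log2 fold changes lay between -0.18 and 0.22 and none passed the test (lowest adjusted p = 0.0856 from edgeR). That value belonged to Pkd1KO against Pkd1KO+ciliaKO females, with a log2 fold change of 0.22 ± 0.08 (SE).

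Cldn15 (ENSMUSG00000001739.14, chromosome 5:136966616-136975858, plus strand), a cation pore best known from the intestine, was highest in the libraries labelled Pkd1KO+ciliaKO female. These held a lowest, median and highest level of 2.99, 5.03 and 6.56 CPM, against 2.53, 3.49 and 4.17 in noncystic and 1.76, 2.90 and 4.64 in Pkd1KO females. The groups overlapped, with 5 of 6 Pkd1KO+ciliaKO females above every noncystic female. Neither difference passed the test with all mice: the log2 fold change was -0.65 ± 0.23 (SE) for Pkd1KO against Pkd1KO+ciliaKO (adjusted p = 0.0743 from edgeR) and 0.56 ± 0.17 for Pkd1KO+ciliaKO against noncystic females (adjusted p = 0.0780 from edgeR). Without the 2 libraries whose Kif3a went against the label, both passed, at -0.76 (adjusted p = 0.0426 from edgeR) and 0.68 (adjusted p = 0.0254 from edgeR). In the former comparison the only such library was the one labelled Pkd1KO+ciliaKO female replicate 6. Leaving out Pkd1KO female replicate 3 or 4 by itself was also enough for the former, with adjusted p of 0.0409 and 0.0448 from edgeR. For the latter, leaving out replicate 6 of Pkd1KO+ciliaKO was enough (adjusted p = 0.0254 from edgeR), and DESeq2 called both with all mice (adjusted p of 0.0316 and 0.0192). In males the 3 medians were 2.89, 3.49 and 3.01 CPM in noncystic, Pkd1KO and Pkd1KO+ciliaKO mice, with overlapping ranges and no call, and the sign of these small differences changed with the mouse left out.

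From mouse to mouse Cldn15 varied together with endothelial genes, which is given as a description. The 3 genes most like it, by Pearson correlation of log2 CPM centred on the group means over 45 mice, were Acvrl1 (r = 0.908), Sdk2 (r = 0.892) and Calcrl (r = 0.880), of which Acvrl1 and Calcrl encode receptors of endothelial cells. The summed level of 4 endothelial markers (Pecam1, Cdh5, Kdr, Emcn), a sum chosen after these genes were seen, correlated with Cldn15 with r = 0.831 and Spearman's rho = 0.813 over the 45 mice, with no test because the same mice had pointed to these genes. Within males r was 0.908 (n = 24) and within females 0.697 (n = 21), and without the 2 mice farthest out it was 0.795 over all mice. By group the sum ran from 57.8 to 129 CPM in Pkd1KO+ciliaKO females, from 39.0 to 93.4 in Pkd1KO females and from 50.4 to 102 in noncystic females, and no marker was at the floor of 3 counts throughout a group. In edgeR 0 of the 4 markers passed in any of the 6 genotype comparisons. At an unadjusted p under 0.05 there were 3 of 4 in Pkd1KO against Pkd1KO+ciliaKO females and 1 of 4 in Pkd1KO+ciliaKO against noncystic females. Cldn15 came closest to the threshold in these comparisons. Over all genes 11.7% and 2.54% passed there after adjustment, and the share at an unadjusted p is not given. The part of endothelial RNA in the Cldn15 values was not tested.

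**Figure D3:**
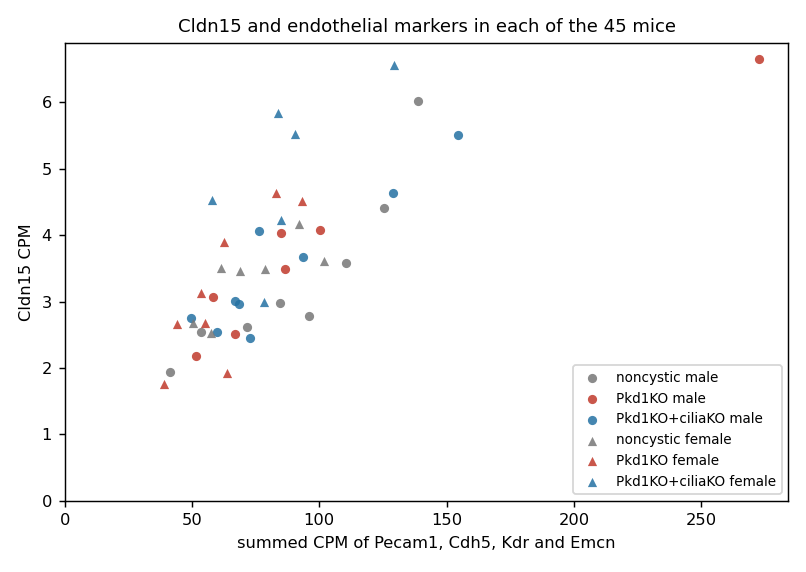
Cldn15 CPM (vertical axis) against the summed CPM of Pecam1, Cdh5, Kdr and Emcn (horizontal axis), with 1 point for each of the 45 mice, coloured by genotype, with circles for males and triangles for females. The values rise together, r = 0.831 after centring on group means, and the Pkd1KO male replicate 4 lies at the top right.

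Cldn12 (ENSMUSG00000046798.14, chromosome 5:5489537-5514958, minus strand), a claudin found in many epithelia, was the steadiest member. Its medians were 78.8, 79.3 and 81.4 CPM in noncystic, Pkd1KO and Pkd1KO+ciliaKO males and 84.0, 88.1 and 81.8 CPM in the females. All 45 mice lay between 66.4 and 99.6 CPM, and every pair of genotypes overlapped. The log2 fold changes between genotypes were between -0.08 and 0.14, with a lowest adjusted p of 0.164 from edgeR.

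Among the barrier claudins, Cldn1 (ENSMUSG00000022512.3, chromosome 16:26356642-26371841, minus strand) changed most in Pkd1KO males. It is a sealing claudin, known in the kidney from the parietal cells of Bowman's capsule. Noncystic males had a lowest, median and highest level of 5.59, 8.45 and 12.4 CPM, Pkd1KO males 11.7, 15.1 and 19.99, and Pkd1KO+ciliaKO males 9.06, 11.1 and 12.5. In each comparison 6 of 7 Pkd1KO males lay above every mouse of the other group, and the ranges overlapped by the remaining mouse.

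Against noncystic males the mean rose from 8.79 ± 2.19 (SD, n = 8) to 16.1 ± 2.92 CPM (SD, n = 7), a log2 fold change of 0.87 ± 0.16 (SE, adjusted p = 0.00298 from edgeR). Against Pkd1KO+ciliaKO males, at 11.1 ± 1.20 CPM (SD, n = 9), the log2 fold change was 0.53 ± 0.11 (SE, adjusted p = 0.00810 from edgeR). Without the 4 males that stood apart both held, at 0.80 (adjusted p = 0.00886 from edgeR) and 0.46 (adjusted p = 0.0338 from edgeR). On log2(TPM + 1) with limma the former held (adjusted p = 0.0221) and the latter was lost (0.36, adjusted p = 0.166). Pkd1KO+ciliaKO males were 0.34 above noncystic males on the log2 scale and did not pass (adjusted p = 0.112 from edgeR), but passed without noncystic replicate 4 (0.42, adjusted p = 0.0391 from edgeR).

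In females Cldn1 was higher throughout and more spread, with a lowest, median and highest of 9.45, 15.2 and 23.1 CPM in noncystic, 14.4, 21.8 and 26.3 in Pkd1KO and 11.6, 15.3 and 20.7 in Pkd1KO+ciliaKO mice. Here too 6 of 8 Pkd1KO females were above every Pkd1KO+ciliaKO female, while 2 of 8 were above every noncystic female. The log2 fold change against Pkd1KO+ciliaKO was 0.45 ± 0.14 (SE) with an adjusted p of 0.0499 from edgeR, on the threshold. Leaving out 1 mouse kept this call in 3 of 14 fits (without Pkd1KO replicate 5 or Pkd1KO+ciliaKO replicate 2 or 5), with adjusted p from 0.0173 to 0.116, and without the library labelled Pkd1KO+ciliaKO replicate 6 it was 0.0754. Against noncystic females the log2 fold change of 0.43 ± 0.17 did not pass (adjusted p = 0.178 from edgeR). Beside Cldn1, 2 of 6 tubule injury markers (Lcn2 and Krt20) rose in Pkd1KO against noncystic males (5 of 6 at an unadjusted p under 0.05), 0 of 6 passed against Pkd1KO+ciliaKO males (2 of 6 at an unadjusted p under 0.05 in edgeR) and 1 of 6 (Krt20) rose against Pkd1KO+ciliaKO females. In Pkd1KO+ciliaKO against noncystic males, where Cldn1 did not pass, 2 of 6 injury markers were higher (3 of 6 at an unadjusted p under 0.05 in edgeR). Summed levels were 522 to 1654 CPM in Pkd1KO males (median 627) and 376 to 753 in noncystic males (median 499). In Pkd1KO+ciliaKO males they were 594 to 1310 CPM, with the highest median of the 3 genotypes (778). Of 5 macrophage markers 1 (Csf1r) was higher in Pkd1KO males against each of the other genotypes, with 5 and 4 of 5 at an unadjusted p under 0.05 and median log2 fold changes of 1.63 against noncystic and 1.23 against Pkd1KO+ciliaKO males. Summed, these ran from 92.5 to 244 CPM in Pkd1KO, 67.2 to 94.4 in noncystic and 47.4 to 93.2 in Pkd1KO+ciliaKO males. In Pkd1KO+ciliaKO against noncystic males 1 of 5 macrophage markers was lower (3 of 5 at an unadjusted p under 0.05 in edgeR). Among females 1 of 5 was higher in Pkd1KO than in Pkd1KO+ciliaKO mice, and 0 of 5 passed in Pkd1KO against noncystic mice. Of 4 podocyte markers, which belong to the glomerulus, 1 was higher in Pkd1KO than in noncystic males (2 at an unadjusted p under 0.05 in edgeR). Against Pkd1KO+ciliaKO males 0 passed, with 0 at an unadjusted p under 0.05, and 2 were higher in Pkd1KO+ciliaKO than in noncystic males. The part of macrophages, of injury and of glomerular cells in the Cldn1 difference was not tested.

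**Figure D4:**
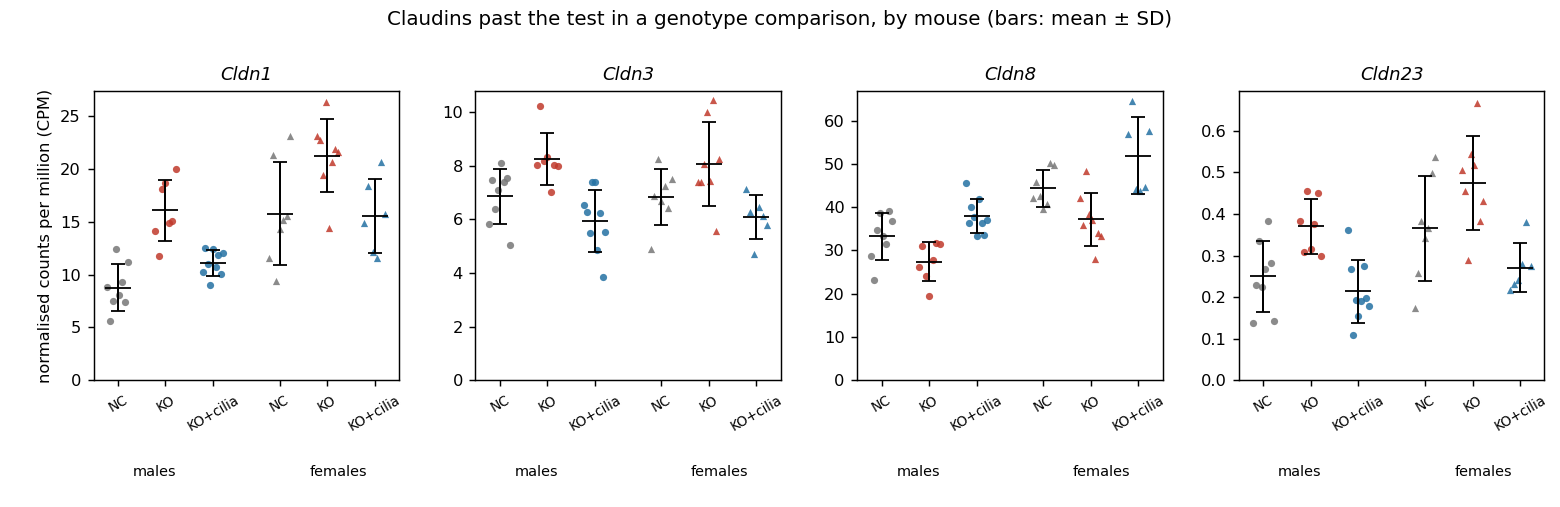
Normalised CPM of Cldn1, Cldn3, Cldn8 and Cldn23 in each mouse (points), with group mean and SD (bars); NC is noncystic, KO is Pkd1KO and KO+cilia is Pkd1KO+ciliaKO, with males left and females right in each panel. Cldn1 is highest in Pkd1KO of each sex, and all 7 Pkd1KO males lie below all 9 Pkd1KO+ciliaKO males for Cldn8.

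Cldn3 and Cldn4 are near-neighbours on chromosome 5 (Cldn3, ENSMUSG00000070473.4, 134986214-134987472, plus strand; Cldn4, ENSMUSG00000047501.3, 134945119-134946934, minus strand), each with 1 exon in the annotation. Cldn3 is a sealing claudin of the distal nephron, and Cldn4 is a collecting duct claudin tied to chloride passage. Cldn3 rose in Pkd1KO against Pkd1KO+ciliaKO males and Cldn4 did not pass the test in any genotype comparison.

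Cldn3 ran from 7.02 to 10.2 CPM in Pkd1KO males (median 8.03), from 3.84 to 7.40 in Pkd1KO+ciliaKO males (median 6.25) and from 5.03 to 8.10 in noncystic males (median 7.22). In Pkd1KO, 6 of 7 males were above every Pkd1KO+ciliaKO male. Against noncystic males neither passed, with log2 fold changes of 0.27 for Pkd1KO and -0.20 for Pkd1KO+ciliaKO (adjusted p of 0.148 and 0.349 from edgeR). The log2 fold change of Pkd1KO against Pkd1KO+ciliaKO males was 0.47 ± 0.12 (SE, adjusted p = 0.0402 from edgeR). This call was held in 4 of 16 fits without 1 mouse (without Pkd1KO replicate 5 or Pkd1KO+ciliaKO replicate 4, 5 or 8), with adjusted p from 0.0292 to 0.0800, and was lost without the 4 males that stood apart (0.36, adjusted p = 0.0633 from edgeR). The same comparison in females gave 0.41 ± 0.13 (SE, adjusted p = 0.0540 from edgeR), from medians of 7.76 CPM in Pkd1KO and 6.18 in Pkd1KO+ciliaKO mice, and passed without Pkd1KO replicate 7 (adjusted p = 0.0233 from edgeR) or without Pkd1KO+ciliaKO replicate 1 (adjusted p = 0.0430 from edgeR). Cldn3 shares 40 exonic bases with Wbscr25 on the opposite strand, and the strand setting of the counting was not given in the sources used here, so its counts are uncertain to that extent.

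Cldn4 medians were 14.5, 14.8 and 14.6 CPM in noncystic, Pkd1KO and Pkd1KO+ciliaKO males, and 19.4, 19.0 and 21.3 in the females. The ranges overlapped between genotypes in each sex. Log2 fold changes ran from -0.11 to 0.19, with a lowest adjusted p of 0.320 from edgeR. Cldn7 (ENSMUSG00000018569.12, chromosome 11:69964779-69967885, plus strand), a claudin of the distal nephron and collecting duct, had medians of 13.9, 14.5 and 14.1 CPM in the males of those genotypes and 21.6, 25.9 and 21.5 in the females. Of 8 Pkd1KO females, 5 were above every noncystic female. That difference was 0.27 ± 0.07 on the log2 scale (SE) and did not pass (adjusted p = 0.0573 from edgeR), though it passed with DESeq2 (adjusted p = 0.0234) and without noncystic replicate 7 or Pkd1KO replicate 5 or 7 (adjusted p of 0.0377, 0.0431 and 0.0367 from edgeR). Against Pkd1KO+ciliaKO females it was 0.25 ± 0.09 (adjusted p = 0.0703 from edgeR), and 0.31 without Pkd1KO+ciliaKO replicate 1 (adjusted p = 0.0305 from edgeR).

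Promoter windows of Cldn1, Cldn3 and Cldn4 are shown because Cldn1 and Cldn3 were both higher in Pkd1KO than in Pkd1KO+ciliaKO males while Cldn4, the neighbour of Cldn3, was not called. Each is the 300 bases around the RefSeq start on GRCm38.p6, 5′ to 3′ on the gene's strand. Capitals mark CAGGTG, an E-box, on either strand (CAGGTG or CACCTG). The windows are chr16:26371790-26372089 (Cldn1, minus strand), chr5:134985964-134986263 (Cldn3, plus strand) and chr5:134946885-134947184 (Cldn4, minus strand).
Cldn1: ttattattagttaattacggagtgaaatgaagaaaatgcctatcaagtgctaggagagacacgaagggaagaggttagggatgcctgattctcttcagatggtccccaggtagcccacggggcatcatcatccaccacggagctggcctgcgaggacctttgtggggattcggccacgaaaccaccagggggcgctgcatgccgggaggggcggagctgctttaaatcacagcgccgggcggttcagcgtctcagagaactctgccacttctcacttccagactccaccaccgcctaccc
Cldn3: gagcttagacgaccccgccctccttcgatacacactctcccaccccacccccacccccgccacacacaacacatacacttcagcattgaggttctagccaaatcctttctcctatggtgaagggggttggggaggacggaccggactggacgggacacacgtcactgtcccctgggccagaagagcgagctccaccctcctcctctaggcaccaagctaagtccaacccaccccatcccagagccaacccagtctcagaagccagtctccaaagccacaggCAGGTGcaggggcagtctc
Cldn4: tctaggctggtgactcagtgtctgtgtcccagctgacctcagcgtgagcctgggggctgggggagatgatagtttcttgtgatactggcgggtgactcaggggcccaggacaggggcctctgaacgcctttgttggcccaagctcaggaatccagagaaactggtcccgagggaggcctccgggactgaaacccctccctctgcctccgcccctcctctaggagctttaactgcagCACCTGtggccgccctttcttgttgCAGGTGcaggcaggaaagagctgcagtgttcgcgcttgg
Cldn4 holds 2 matches, at -14 and 12 relative to the start, Cldn3 holds 1, at 32, and Cldn1 holds none. Windows of other members with matches are those of Cldn7, at -97 and -57 from start 2 of those listed, and Cldn14, at -31, also from its start 2. Of 32817 promoter windows in the table, 20.2% hold at least 1 match. The set of windows used here held 13 for 8 of the 10 members, all but Cldn8 and Cldn23. The letters AACCGGTT (found in 0.146% of windows) and GGGGGTC (3.79%), each searched on both strands, were in none of the members' windows, and TATAAA (13.6%) was in that of Cldn2, at -35. These matches are letters in a window, and their absence says nothing of a factor.

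Cldn8 (ENSMUSG00000050520.4, chromosome 16:88560828-88563183, minus strand), a barrier claudin of the distal nephron and collecting duct, was lower in Pkd1KO than in Pkd1KO+ciliaKO mice, with noncystic mice in between. Its lowest, median and highest levels in males were 19.6, 27.7 and 31.6 CPM in Pkd1KO, 33.3, 37.1 and 45.5 in Pkd1KO+ciliaKO and 23.3, 34.1 and 39.0 in noncystic mice. All 7 Pkd1KO males were below all 9 Pkd1KO+ciliaKO males. The log2 fold change of Pkd1KO against Pkd1KO+ciliaKO males was -0.47 ± 0.10 (SE, adjusted p = 0.00980 from edgeR), and -0.41 without the 4 males that stood apart (adjusted p = 0.0108 from edgeR). Neither group passed against noncystic males: the log2 fold change was -0.28 ± 0.12 for Pkd1KO (adjusted p = 0.166 from edgeR) and 0.19 ± 0.09 for Pkd1KO+ciliaKO (adjusted p = 0.219 from edgeR).

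The order of the medians was the same in females. Pkd1KO females had 28.1, 36.5 and 48.4 CPM, Pkd1KO+ciliaKO females 43.7, 50.7 and 64.5 and noncystic females 39.5, 42.5 and 50.2. In Pkd1KO, 7 of 8 females were below every Pkd1KO+ciliaKO female and 6 of 8 below every noncystic female. The log2 fold change against Pkd1KO+ciliaKO was -0.48 ± 0.12 (SE, adjusted p = 0.0147 from edgeR), and -0.45 without the 2 libraries whose Kif3a went against the label (adjusted p = 0.0319 from edgeR). Against noncystic females the log2 fold change of -0.25 ± 0.09 did not pass (adjusted p = 0.166 from edgeR) except without Pkd1KO replicate 3 (-0.31, adjusted p = 0.0436 from edgeR). Pkd1KO+ciliaKO females were above noncystic females by 0.23 ± 0.10 on the log2 scale (adjusted p = 0.210 from edgeR), a difference that passed with limma on log2(TPM + 1) (0.34, adjusted p = 0.0439). Both calls against Pkd1KO+ciliaKO were kept whichever mouse was left out.

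Markers of the segments around Cldn8 moved in part with it. For the thick ascending limb, 3 of 4 markers were lower in Pkd1KO than in Pkd1KO+ciliaKO males and 2 of 4 in the females, Slc12a1 among them, with log2 fold changes of -0.73 and -0.53. Summed, they ran from 2012 to 3412 CPM in Pkd1KO and from 2359 to 4367 in Pkd1KO+ciliaKO males. For the distal convoluted tubule 1 of 3 was lower in each sex (Pvalb), for intercalated cells 1 of 5 in each (Foxi1 in males, Atp6v1g3 in females), and for principal cells of the collecting duct edgeR called 0 of 7 in each sex (0 in males and 1 in females at an unadjusted p under 0.05). The principal cell markers summed to 336 to 780 CPM in Pkd1KO and 351.6 to 883 in Pkd1KO+ciliaKO males, and no marker of these lists was at the floor. The part of segment composition in the Cldn8 difference was not tested.

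Cldn23 (ENSMUSG00000055976.6, chromosome 8:35824712-35826559, minus strand), a little studied claudin of intestinal epithelium, was scarce and, like Cldn1, was higher in Pkd1KO than in Pkd1KO+ciliaKO females. Pkd1KO females had 0.289 to 0.667 CPM (median 0.481), Pkd1KO+ciliaKO females 0.216 to 0.380 (median 0.258) and noncystic females 0.174 to 0.538 (median 0.367). In Pkd1KO, 7 of 8 females were above every Pkd1KO+ciliaKO female. The log2 fold change was 0.80 ± 0.21 (SE, adjusted p = 0.0199 from edgeR), and 0.81 without the 2 libraries whose Kif3a went against the label (adjusted p = 0.0345 from edgeR). In males the medians were 0.375, 0.192 and 0.248 CPM in Pkd1KO, Pkd1KO+ciliaKO and noncystic mice, and Pkd1KO was above Pkd1KO+ciliaKO by 0.79 ± 0.22 on the log2 scale (SE, adjusted p = 0.0555 from edgeR). That value passed without Pkd1KO+ciliaKO replicate 1 (0.92, adjusted p = 0.0233 from edgeR) and with DESeq2 (adjusted p = 0.0132). Against noncystic mice the log2 fold changes of 0.57 in males and 0.38 in females did not pass (adjusted p of 0.167 and 0.470 from edgeR), and Pkd1KO+ciliaKO females lay below noncystic females by a value that did not pass either (-0.43, adjusted p = 0.351 from edgeR).

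Cldn14 (ENSMUSG00000047109.13, chromosome 16:93919031-94008837, minus strand), a thick ascending limb claudin that responds to calcium, was near the floor of detection in these kidneys. It had 3 counts or fewer in 14 of 24 males and in 7 of 21 females, and no more than 20 counts in any mouse. The highest level was 0.155 CPM, in a Pkd1KO female, where 3 counts correspond to 0.0231 to 0.0380 CPM depending on the library. No difference between groups could be read at that depth.

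Between noncystic males and females 5 claudins differed, 4 of them lower in males. In that comparison 27.5% of the 15828 genes tested were called, 15.3% higher and 12.2% lower in males, and the median log2 fold change of the 9 claudins tested was -0.40 against -0.01 over all genes. Cldn7 differed with the smallest p. Noncystic males had a lowest, median and highest of 11.6, 13.9 and 15.8 CPM and noncystic females 18.5, 21.6 and 24.4, with no overlap, and the log2 fold change of males against females was -0.62 ± 0.07 (SE, adjusted p = 7.4e-06 from edgeR).

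Cldn4 and Cldn8 also did not overlap between the sexes. Cldn4 ran from 10.9 to 15.8 CPM in noncystic males and from 17.1 to 21.8 in the females (log2 fold change -0.44 ± 0.08, adjusted p = 0.000601 from edgeR). For Cldn8 the male and female ranges were 23.3 to 39.0 and 39.5 to 50.2 CPM (-0.40 ± 0.10, adjusted p = 0.00530 from edgeR). Cldn1 overlapped, with 6 of 8 males below every female, at -0.83 ± 0.19 (adjusted p = 0.00326 from edgeR). Cldn2, the X-linked pore claudin, went the other way, with 5 of 8 males above every female and a log2 fold change of 0.33 ± 0.10 (adjusted p = 0.0166 from edgeR). All 5 calls were kept in each of the 15 fits without 1 mouse and in the fit without noncystic male replicate 3 and the library labelled noncystic female replicate 5. With replicate number as a block the call of Cldn2 was lost (adjusted p = 0.0644 from edgeR).

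**Figure D5:**
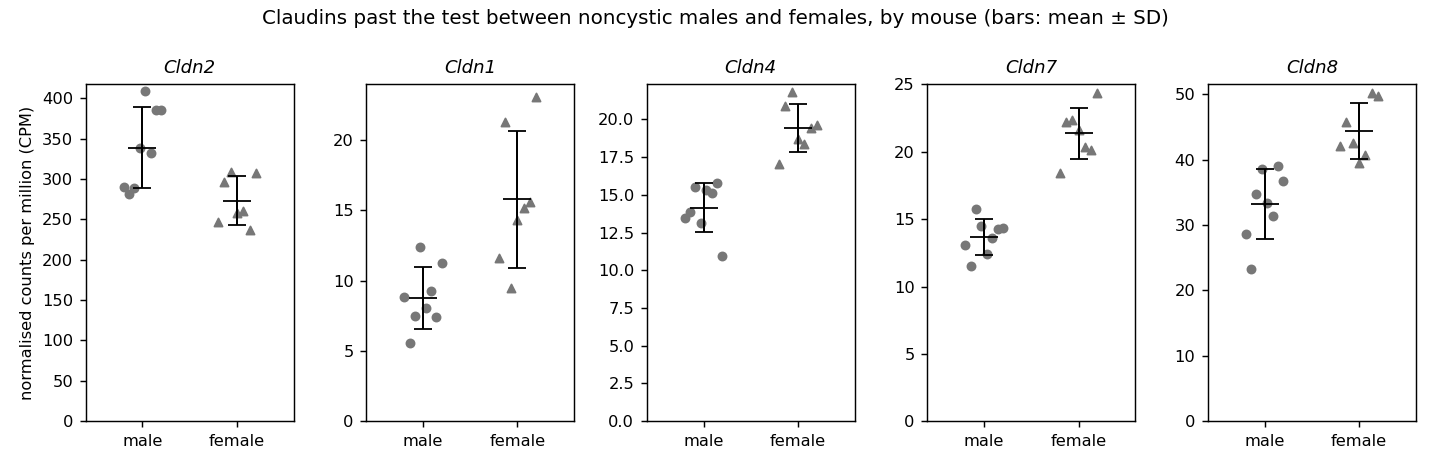
Normalised CPM of Cldn2, Cldn1, Cldn4, Cldn7 and Cldn8 in the 8 noncystic males (circles) and 7 noncystic females (triangles), with mean and SD. Cldn2 is higher in males, Cldn1, Cldn4, Cldn7 and Cldn8 are higher in females, and the sexes do not overlap for Cldn4, Cldn7 and Cldn8.

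Cldn3, Cldn12, Cldn15 and Cldn23 did not pass between the sexes, with adjusted p of 0.915, 0.411, 0.954 and 0.156 from edgeR, and Cldn23 had the largest log2 fold change of these, at -0.53. Segment markers moved with the called claudins here: 4 of 7 principal cell markers and 3 of 5 intercalated cell markers were lower in males, and 4 of 8 proximal tubule markers were higher. The principal cell markers summed to 409 to 675 CPM in males and 538 to 846 in females. The proximal tubule markers summed to 10493 to 17396 CPM in males and 9458 to 12727 in females. Of the tubule injury markers 5 of 6 were lower in males. Their part in the claudin differences was not tested.

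Whether a genotype difference itself differed between the sexes was asked with a sex by genotype interaction term, fitted to all 45 mice. For each of the 3 comparisons edgeR called 0 of 9 claudins, with 1, 1 and 0 at an unadjusted p under 0.05, where few genes of any kind were called: 0.0126% for Pkd1KO with noncystic (0.00632% in each direction), 0.221% for Pkd1KO with Pkd1KO+ciliaKO (0.0316% higher and 0.19% lower in males) and 0.0316% for Pkd1KO+ciliaKO with noncystic (0.0126% higher and 0.019% lower). DESeq2 called 0 in each. For Cldn1 in Pkd1KO against noncystic the male log2 fold change exceeded the female by 0.44 ± 0.22 (SE, adjusted p = 0.616 from edgeR). For Cldn15 in Pkd1KO against Pkd1KO+ciliaKO the difference was 0.74 ± 0.33 (adjusted p = 0.549 from edgeR). The call of Cldn1 in Pkd1KO males and its absence in females is thus not shown to be a difference between them.

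Other claudins and the proteins that hold claudins in place were examined in the same fits. Of 21 further claudin-family genes 12 were tested. Cldn10, which forms pores in the proximal tubule and thick ascending limb and had group medians of 138 to 176 CPM, passed in none of the 6 genotype comparisons (edgeR, lowest adjusted p = 0.368, with 0 at an unadjusted p under 0.05). Cldn6 was higher in males, in Pkd1KO (0.79, adjusted p = 0.0326 from edgeR) and in Pkd1KO+ciliaKO (0.75, adjusted p = 0.0161 from edgeR) against noncystic mice, at medians of 0.540, 0.925 and 0.970 CPM in noncystic, Pkd1KO and Pkd1KO+ciliaKO males. The former call was kept in 12 of 24 alternatives and lost without the males that stood apart (adjusted p = 0.0546 from edgeR). Cldn6 lies 0.87 Mb from Pkd1, a targeted gene, on chromosome 17. Cldn19, which works with Cldn16 in magnesium and calcium uptake in the thick ascending limb, was highest in Pkd1KO+ciliaKO males (43.3 to 71.3 CPM against 24.2 to 47.9 in noncystic males), a log2 fold change of 0.59 (adjusted p = 0.00686 from edgeR). Against these mice Pkd1KO males, at 30.8 to 47.2 CPM, were lower, with a log2 fold change of -0.46 (adjusted p = 0.0280 from edgeR). Cldn16 was lower in Pkd1KO than in noncystic females (-0.53, adjusted p = 0.0466 from edgeR), a call kept in 7 of 24 alternatives.

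Ildr1, which encodes angulin-2, a protein of the tricellular junction, was lower in Pkd1KO in each of the 4 comparisons that involve it. Its medians were 33.4, 21.8 and 26.7 CPM in noncystic, Pkd1KO and Pkd1KO+ciliaKO males and 39.7, 30.7 and 37.7 in the females. Against noncystic mice the log2 fold change was -0.53 in males (adjusted p = 0.00397 from edgeR) and -0.41 in females (adjusted p = 0.00226 from edgeR), and these calls held in all 24 alternatives each. Against Pkd1KO+ciliaKO mice the log2 fold changes of -0.33 (adjusted p = 0.0412 from edgeR) in males and -0.33 (adjusted p = 0.0382 from edgeR) in females were kept in 12 of 25 and 13 of 23 alternatives. They were lost without the males that stood apart (adjusted p = 0.0805 from edgeR) and without the 2 libraries whose Kif3a went against the label (adjusted p = 0.0710 from edgeR).

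Of 25 junction partner genes, the tight junction scaffolds Tjp1 and Tjp3 and occludin (Ocln) passed in none of the 6 genotype comparisons in edgeR, with 1 value, for Tjp3, at an unadjusted p under 0.05. In Pkd1KO against Pkd1KO+ciliaKO females 1 partner rose and 3 fell: Marveld3, a relative of occludin, rose by 0.40 (adjusted p = 0.00245 from edgeR), and the adhesion molecules Jam2 (-0.85, adjusted p = 0.0157 from edgeR) and Jam3 (-0.47, adjusted p = 0.0121 from edgeR) fell with Ildr1. Jam2, which endothelial cells also make, ran from 3.64 to 6.05 CPM in Pkd1KO+ciliaKO and from 1.47 to 4.13 in Pkd1KO females. The polarity gene Pard6b rose in Pkd1KO against noncystic females (0.26, adjusted p = 0.0150 from edgeR), and Pard3 fell in Pkd1KO+ciliaKO against noncystic males (-0.16, adjusted p = 0.0211 from edgeR). Of 6 genes that act on claudins, Klhl3, whose protein marks WNK kinases for degradation, was lower in Pkd1KO than in noncystic males (-0.40, adjusted p = 0.0339 from edgeR), a call kept in 14 of 24 alternatives and lost without the males that stood apart (adjusted p = 0.0714 from edgeR). Wnk4 was lower in Pkd1KO than in Pkd1KO+ciliaKO females (-0.30, adjusted p = 0.0298 from edgeR).

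Between noncystic males and females the partners were called in both directions. Of 25 junction partners 4 were higher in males (Mpdz, Patj, Pard3 and Mpp5) and 7 lower (Prkci, Magi3, Ybx3, Marveld3, Tjp3, Ildr1 and Crb3). Of 6 claudin regulators 5 were lower in males: Epcam, which binds and stabilises Cldn7 (-0.44, adjusted p = 0.00201 from edgeR), Grhl2, an activator of Cldn4 (-0.42, adjusted p = 0.00526 from edgeR), the protease St14 (-0.39, adjusted p = 0.00449 from edgeR), Casr and Klhl3. Among other claudins Cldn18 and Cldn9 were higher in males, by 3.28 (adjusted p = 7.4e-05 from edgeR) and 1.35 (adjusted p = 0.00102 from edgeR), from medians of 2.02 and 0.379 CPM in males and 0.198 and 0.147 in females. Cldn16, Cldn19 and Cldn34c1 were lower in males, by log2 fold changes of -0.43, -0.44 and -0.39, the last of which was kept in 6 of 21 alternatives. The calls of Mpdz, Klhl3, Crb3 and Casr were kept in 10, 12, 15 and 16 of 21 alternatives.

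Likeness to other genes, measured as Pearson correlation of log2 CPM centred on the group means over the same 45 mice, was computed against all genes tested in both sexes. These correlations are descriptions, and genes of a library share its depth and cell mix. For Cldn2 the closest were Slc19a3 (r = 0.863), Pttg1ip (r = 0.852) and Iyd (r = 0.825), and for Cldn12 they were Rnf13 (r = 0.808), Aph1a (r = 0.803) and Dram2 (r = 0.789). Cldn8 was closest to Plppr1 (r = 0.760), Kcnj10 (r = 0.724), a potassium channel of the distal nephron, and Tspan1 (r = 0.709). Cldn3 was closest to Adam15, Shisa5 and Tmem238 (r of 0.777, 0.769 and 0.742), Cldn4 to Muc1, Maff and Nectin2 (0.743, 0.735 and 0.733) and Cldn7 to Slc39a13, Tmem63a and Epcam (0.707, 0.701 and 0.695).

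Cldn1 had weaker neighbours, Vgll3, Trp53inp1 and Glipr2, with r of 0.671, 0.658 and 0.635, and Cldn23 had Lrp8, A4gnt and Enox1, with r of 0.593, 0.583 and 0.568. At its low counts Cldn14 reached at most 0.543, with 1700061G19Rik. No claudin was among the closest genes of another claudin.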

How the data were processed

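TRAP RNASeq of 45 mouse kidneys was deposited by the authors as tables of counts and of TPM, 2 of each, split by sex. Per the labels and the study's methods, the authors made raw counts per gene with featureCounts 2.0.0 from alignments to GRCm38.p6 (STAR 2.7.9, after trimming by fastp 0.20.0); the strand and multimapping settings were not given in the sources used here. The deposited TPM values are the authors' length-scaled levels of protein-coding genes past their filter (15991 in males, 15968 in females).

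The counts of these genes were fitted with edgeR 4.0.16 (R 4.3.3, TMM, quasi-likelihood test, Benjamini-Hochberg adjustment over all genes) for each pair of genotypes within a sex, and over 15828 genes for noncystic males against females and for the interaction. CPM used TMM over 45 mice, and correlations used log2(CPM + 0.1). DESeq2 1.42.0, limma 3.58.1 (voom with quality weights, log2(TPM + 1), log2(TPM + 0.1)), other size factors, no filter, all 3 genotypes in 1 fit, a replicate block and fits without libraries were alternatives. The steps were tested on simulated data. Libraries held 80874556 to 132958186 counts; 3 counts, the floor used, cover counting error only. No 2 libraries of a group agreed within sampling noise (149 pairs). Gene spans came from the GENCODE annotation and promoter windows from RefSeq.

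All members are described, with values for each. Of the other lists, the genes named were those called, plus the scaffolds Tjp1 and Tjp3, Ocln and the abundant Cldn10, chosen after their values were seen (some genes of the lists are not reported here); likeness names the 3 closest genes. The members, the lists and the libraries left out were chosen with earlier results of these data known.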

Additional observations from a re-analysis of the deposited data

Results flagged for a closer look

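Within a group, 4 of 60 combinations of claudin and group had a mouse far from the others by Dixon's criterion, which chance alone gives in about 1 of 20. Cldn3 was at 10.2 CPM in Pkd1KO male replicate 2, where the next highest Pkd1KO male had 8.33. Cldn4 was at 22.1 CPM in Pkd1KO male replicate 3, above the next value of 17.2. Cldn14 was at 0.0102 CPM in the library labelled Pkd1KO+ciliaKO female replicate 6, below the next value of 0.0475 and below the floor of 3 counts. Cldn15 was at 6.65 CPM in Pkd1KO male replicate 4, above the next value of 4.08, and that library also had the highest summed endothelial markers of the Pkd1KO males (273 CPM).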

How the results depend on the processing

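Over all fold changes of the 10 claudins, 494 values kept their direction and side of the threshold under alternatives other than leaving out 1 mouse, 22 newly passed, 16 no longer passed and 34 turned direction. With 1 mouse left out 898 kept both, 13 newly passed, 23 no longer passed and 53 turned direction. Those that turned had not passed with all mice and did not pass when turned; they include Cldn15 between male genotypes and Cldn3 and Cldn15 between the sexes. For the calls of other list genes, 241 values were kept and 29 lost under the former alternatives, and 461 kept and 97 lost with 1 mouse left out. The number of claudins called changed as follows. With the replicate block it fell from 3 to 0 between Pkd1KO and Pkd1KO+ciliaKO in males and from 3 to 0 in females. Calls over all genes fell there too, from 603 to 170 and from 1869 to 612. Between noncystic males and females the block left 4 claudins called, all but Cldn2, with 3334 genes called in all against 4353 without it. Same-numbered mice did not deviate together (correlations of -0.33 to 0.36), so the numbers were not taken as pairs. DESeq2 called 1 claudin (Cldn7) between Pkd1KO and noncystic females, 5 between Pkd1KO and Pkd1KO+ciliaKO females and 1 (Cldn15) between Pkd1KO+ciliaKO and noncystic females. It called 962, 2507 and 1280 genes in all there, against 533, 1869 and 405 with edgeR. Voom called 1 (Cldn1) between Pkd1KO+ciliaKO and noncystic males and 1 (Cldn8) between Pkd1KO and noncystic females, with 2803 and 809 genes called in all. Both TPM fits called 1 (Cldn7) between Pkd1KO and noncystic females and 2 (Cldn8 and Cldn15) between Pkd1KO+ciliaKO and noncystic females. With log2(TPM + 1) these fits called 517 and 1000 genes in all, and with log2(TPM + 0.1) 516 and 1007. Without the 2 libraries whose Kif3a went against the label 1 (Cldn15) was called between Pkd1KO+ciliaKO and noncystic females, with 926 genes called in all. The cause of these changes was not tested. With 1 mouse left out the counts were 1 to 1 and 2 to 3 for Pkd1KO males against noncystic and Pkd1KO+ciliaKO males, 0 to 1 and 2 to 4 for the same in females, 0 to 1 in each sex for Pkd1KO+ciliaKO against noncystic, 5 to 5 for noncystic males against females and 0 to 0 for the interactions. Depth limits Cldn14 and leaves Cldn23 to few counts.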
